A study of Mus musculus with 4 samples.

Results

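HSC-only regions away from gene ends are stretches of the mouse genome where a Sub1 peak was listed in both hematopoietic stem cell (HSC) libraries and in neither leukemia stem cell (LSC) library. They were chosen by the readout itself: overlapping peaks of the 4 lists were merged where they shared at least 1 bp, and a merged region was kept if both HSC libraries had a peak of at least 500 bp there, no LSC library had a peak, and every end of a protein-coding gene was over 1 kb away. The rule selected 4687 of the 259342 merged regions that lie away from gene ends, which is 1.81%, out of 285131 merged regions on the main chromosomes. Because absence of LSC peaks and presence of HSC peaks made the selection, the counts and fold values below describe the regions and carry no test.

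The LSC libraries came from bone marrow cells sorted as CD34+CD16/32+ and c-Kit+ but Lin- and Sca-1-, taken from Nup214fl/+ mice with disease driven by the MLL-AF9 fusion. The HSC libraries came from CD48-CD150+LSK bone marrow cells (LSK stands for Lin-, Sca-1+ and c-Kit+) of Nup214fl/+ mice, so all 4 libraries share 1 floxed Nup214 allele, and there are 2 libraries per group. Whether 2 libraries of one kind stem from different animals is not stated in the labels, so spread between them may be technical. Cell type is written as hematopoietic stem cell on all 4 samples, so the groups rest on the titles and the sorting scheme. Peak names in the lists start with H4-Cut, a prefix the labels do not explain, and the target is called Sub1 on the labels' word.

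Sub1, also called PC4, is an abundant chromatin protein that binds single-stranded DNA and acts as a coactivator of RNA polymerase II transcription. CUT&Tag locates a chromatin protein by tethering a transposase to its antibody inside intact nuclei, so that fragments are released where the antibody sits. In blood stem cells and their leukemic counterparts, sites far from promoters often act as enhancers, which distinguish cell types more than promoters do, and transcription factors of the RUNX, ETS, GATA and CEBP families occupy many of them.

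The lists differ in length before any region is compared. LSC 1 and LSC 2 held 41097 and 34185 peaks, and HSC 1 and HSC 2 held 115881 and 235680. Among 11403 regions away from gene ends with a long peak in both HSC libraries, 4687 had no LSC peak (41.1%), 2600 had a peak in 1 LSC library and 4116 had a peak in both. The last group is called shared here and serves for comparison. The mirror-image rule, long peaks in both LSC libraries and none in HSC, selected 331 regions, which is 0.128% of those away from gene ends. When every list was shortened to its 34185 peaks of highest -log10 p, the same rules selected 905 HSC-only and 1598 LSC-only regions, so which group has more private regions turns round with list length. Of the 905 regions, 806 overlapped a region of the full-list rule (89.1%), and these in turn covered 17.2% of the 4687. With 1 HSC library left out the rule would select 67831 regions (without HSC 1) or 13946 (without HSC 2).

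Sequence was available where an HSC-only region contained an annotated transcript start. In all, 81 starts of 76 genes fell inside 72 of the regions, 52 of them starts of lncRNAs and 29 of protein-coding genes. By the rule these 29 lie over 1 kb from the annotated gene ends. Which start of a gene is mainly used was not examined. The 250 bases before the start are printed for 7 of them, from RefSeq GRCm38.p6, 5′ to 3′ on the strand of the gene. They were taken from windows that lie wholly inside a region: the leading lncRNA and the first 3 protein-coding genes by HSC rank, and 3 further ones chosen after their matches were seen, to show an ETS, a RUNX and a CEBP match. Capitals mark short motifs, searched on both strands, where they occur. The letters were GGAAGT for factors of the ETS family, and those of the RUNX family were given as TGTGGT. Binding letters of the CEBP family were written TTGCNNAA, while GATA factors were represented by AGATAA. Finally, the AP-1 family was searched as TGANTCA. None of these strings contains another.
2500002B13Rik: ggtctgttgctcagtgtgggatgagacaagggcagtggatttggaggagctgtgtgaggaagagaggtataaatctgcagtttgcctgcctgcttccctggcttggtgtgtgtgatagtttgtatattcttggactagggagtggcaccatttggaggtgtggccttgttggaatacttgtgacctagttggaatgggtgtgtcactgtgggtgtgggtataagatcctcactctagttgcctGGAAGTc
Gcnt2: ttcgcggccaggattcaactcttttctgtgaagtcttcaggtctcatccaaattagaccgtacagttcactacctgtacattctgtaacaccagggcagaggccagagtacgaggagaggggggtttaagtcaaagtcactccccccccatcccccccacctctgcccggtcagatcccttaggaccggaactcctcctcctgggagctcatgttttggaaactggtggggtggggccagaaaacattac
Tmem184a: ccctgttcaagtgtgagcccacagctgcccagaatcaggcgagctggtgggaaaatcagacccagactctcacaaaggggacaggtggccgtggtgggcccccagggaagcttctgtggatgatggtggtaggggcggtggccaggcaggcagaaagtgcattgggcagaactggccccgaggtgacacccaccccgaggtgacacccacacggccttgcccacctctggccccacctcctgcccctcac
Aldh6a1: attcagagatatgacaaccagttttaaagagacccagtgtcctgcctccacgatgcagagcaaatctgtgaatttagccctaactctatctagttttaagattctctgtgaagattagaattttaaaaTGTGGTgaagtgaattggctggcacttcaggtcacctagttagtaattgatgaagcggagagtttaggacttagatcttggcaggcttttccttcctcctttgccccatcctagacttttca
Gm11342: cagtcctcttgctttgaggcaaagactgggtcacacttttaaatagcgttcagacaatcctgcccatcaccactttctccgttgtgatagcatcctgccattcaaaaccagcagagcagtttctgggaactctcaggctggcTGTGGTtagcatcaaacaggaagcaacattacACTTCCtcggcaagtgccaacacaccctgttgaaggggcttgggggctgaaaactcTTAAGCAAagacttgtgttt
Prr5l: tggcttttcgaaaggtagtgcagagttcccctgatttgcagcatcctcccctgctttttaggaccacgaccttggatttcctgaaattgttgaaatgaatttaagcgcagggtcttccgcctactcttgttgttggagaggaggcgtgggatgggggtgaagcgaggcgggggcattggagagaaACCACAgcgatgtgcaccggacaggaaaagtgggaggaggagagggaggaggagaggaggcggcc
Pfkm: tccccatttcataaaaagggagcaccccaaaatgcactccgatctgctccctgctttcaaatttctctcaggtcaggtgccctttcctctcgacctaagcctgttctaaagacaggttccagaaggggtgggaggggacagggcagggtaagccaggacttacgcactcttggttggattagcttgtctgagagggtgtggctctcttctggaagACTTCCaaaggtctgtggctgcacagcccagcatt

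The 2500002B13Rik window, upstream of a lncRNA on chr8:57505565-57505814, ends in an ETS match and has no CpG. Its region had folds of 18.7 in HSC 1 and 15.1 in HSC 2. Gcnt2, which encodes an enzyme that branches poly-N-acetyllactosamine chains, has its window at chr13:40886508-40886757 in a region 24586 bp from the nearest LSC peak, with folds of 16.5 and 18.8. Its 250 bases hold 6 CpG and none of the marked motifs. The Tmem184a window lies at chr5:139813244-139813493 and is the richest of the 7 in G and C, at 64.4%. Aldh6a1 encodes a mitochondrial dehydrogenase of valine breakdown, and its window at chr12:84448318-84448567 holds a RUNX match and 41.2% GC. The Gm11342 window, at chr13:24375951-24376200, holds ETS, RUNX and CEBP matches together. Prr5l, a partner of the mTORC2 kinase complex, has a RUNX match and 10 CpG at chr2:101797708-101797957. Pfkm, the muscle-type phosphofructokinase of glycolysis, has an ETS match on the opposite strand at chr15:98111810-98112059. These windows may overlap other transcripts of the same gene, which the table does not show.

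Base content was read over windows from 250 bases before to 50 after each start. Those of HSC-only regions had a median GC content of 52.0%, against 58.0% for 1073 starts in shared regions and 52.7% for all 32851 annotated starts. At least 10 CpG were present in 19.8% of HSC-only windows, 63.4% of shared windows and 43.5% of all windows. The background nearest in kind was 11395 starts away from gene ends that lay in no merged region, with a median GC content of 48.0% and at least 10 CpG in 16.8%. ETS letters occurred in 28.4% of HSC-only windows, 28.8% of shared windows and 23.8% of all windows. RUNX letters occurred in 19.8%, 15.0% and 16.8% in the same order of window groups. CEBP letters occurred in 12.3% of HSC-only, 10.7% of shared and 10.8% of all windows, and GATA letters in 11.1%, 7.18% and 11.2%. In the 11395 starts in no merged region, ETS, RUNX, CEBP and GATA letters occurred in 20.8%, 19.9%, 12.4% and 14.6%. AP-1 letters occurred in 8.64% of HSC-only, 6.62% of shared and 7.81% of all windows, and in 9.65% of starts in no merged region. The letters TGATTNAT of HOX and MEIS partners were in 0 of the 81 windows, against 2.14% of shared and 3.22% of all windows. A count of 0 among 81 allows a share of up to 3.70% if the starts are independent, but they come from 72 regions. Starts in no merged region stood at 4.3% for these letters. Their median GC content was also lower, and the difference was not tested. With 81 windows, differences of a few percentage points rest on a handful of starts.

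A few microRNA genes lay in the regions as well: 5 of 1005 annotated hairpins, against 25 in shared regions. Mir33 sits inside Srebf2, the gene of a transcription factor that switches on cholesterol synthesis, and miR-33 is known to repress cholesterol export genes. Mir7676-2 lies in Csf2rb, which encodes the common beta chain of the receptors for GM-CSF, interleukin-3 and interleukin-5. The mature strands of both are given with the seed, bases 2 to 8, in capitals, and the 9 mature sequences of the 5 hairpins hold 9 different seeds.
mmu-miR-33-5p: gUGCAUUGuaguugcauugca
mmu-miR-33-3p: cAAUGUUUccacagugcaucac
mmu-miR-7676-5p: aGGGCAGUaugauggccucugau
mmu-miR-7676-3p: uCCGGUGCucacucugcccaca

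The Mir33 region, chr15:82197438-82199557, had folds of 6.39 in HSC 1 and 9.33 in HSC 2 and lay 47 bp from an LSC peak. The Csf2rb region, chr15:78347446-78348768, had folds of 11.1 and 7.67 and lay 12306 bp from one. The other 3 hairpins were Mir6944 in Dbn1, Mir6956 in Triobp and Mir6963 in Itga5.

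In both HSC libraries the selected peaks were of middle to upper rank, below those of shared regions. The authors' fold of the strongest peak, a ratio of pileup to background, ran from 3.93 to 29.2 in HSC 1 with a median of 8.84, and from 2.95 to 48.6 in HSC 2 with a median of 10.4. In shared regions the medians were 13.5 in HSC 1 and 17.4 in HSC 2. Ranked by -log10 p within its own list, the median peak of an HSC-only region stood at percentile 67.4 in HSC 1 and 79.5 in HSC 2, against 87.2 and 93.5 for shared regions. The strongest peaks of the HSC libraries overlapped in 4672 of the 4687 regions (99.7%), which the rule largely fixes. With no LSC peak in a region, the HSC peaks were joined by their own overlap. A single peak was present in 83.9% of the regions in HSC 1 and in 91.1% in HSC 2. The overlap reached 50% of both peaks in 2196 regions (46.9%), against 49.4% of shared regions. Summits lay a median 348 bp apart, against 355 bp in shared regions. Across regions the percentiles in HSC 1 and HSC 2 had a Spearman correlation of 0.21, over 4687 regions, and of 0.66 over the 4116 shared ones. These points share 2 libraries, and the minimum length cuts off the low end of both.

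**Figure D1:**
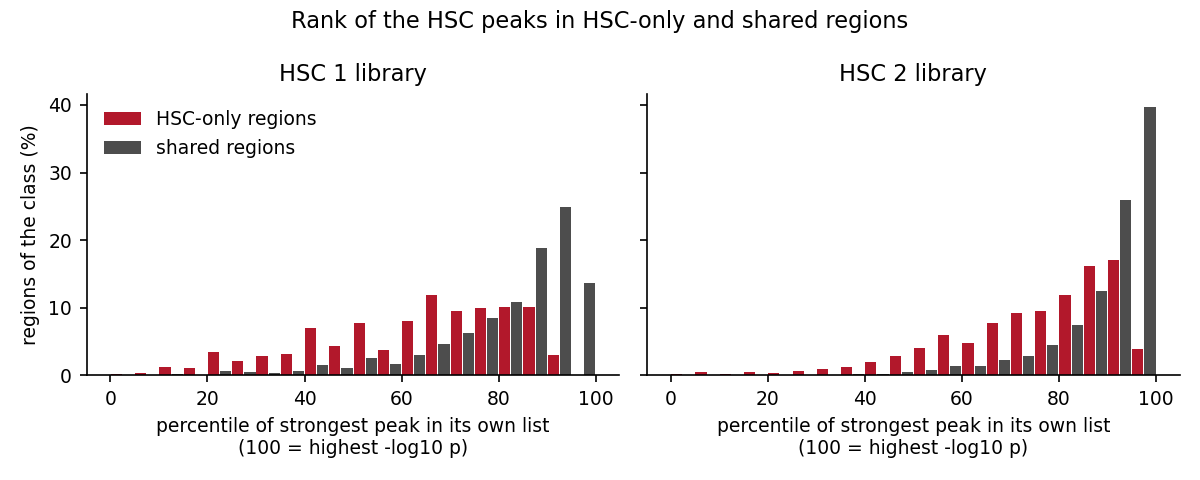
Percent of regions (vertical axis) by the percentile of their strongest peak within its own list (horizontal axis, bins of 5 percentile points), for HSC-only regions (red, left bar of each pair) and shared regions (grey, right bar) in HSC 1 and HSC 2. In HSC 2 the top bin holds 3.95% of HSC-only and 39.7% of shared regions, and in HSC 1 it holds 0.064% and 13.6%.

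Regions just inside and just outside the limits of the rule had similar values. Where the shorter of the HSC peaks measured 500 to under 550 bp (1061 regions, kept), median folds were 8.11 in HSC 1 and 9.21 in HSC 2, and at 450 to under 500 bp (1276 regions, not kept) they were 7.86 and 8.74. At over 1000 to 1200 bp from a gene end (74 regions, kept) medians were 8.84 and 10.2, and at 800 to 1000 bp (87 regions, not kept) they were 8.35 and 10.6.

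HSC-only regions lay mostly inside genes, and their median distance to a gene end was below that of the other classes away from gene ends. Of the 4687, 2781 overlapped a protein-coding gene, which is 59.3% (exact 95% interval 57.9% to 60.7%, for counting error only), against 60.2% of shared regions, 48.6% of LSC-only regions and 53.9% of all merged regions away from gene ends. A further 363 (7.74%) lay in a lncRNA alone. The median distance to the nearest gene end was 6503 bp, against 7658 bp for shared and 21583 bp for LSC-only regions and 15971 bp for all. Within 10 kb of a gene end lay 66.8% of HSC-only, 57.4% of shared and 26.9% of LSC-only regions, and 81 HSC-only regions (1.73%) lay beyond 100 kb. Exons and introns could not be separated, as the gene table gives only starts and ends.

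**Figure D2:**
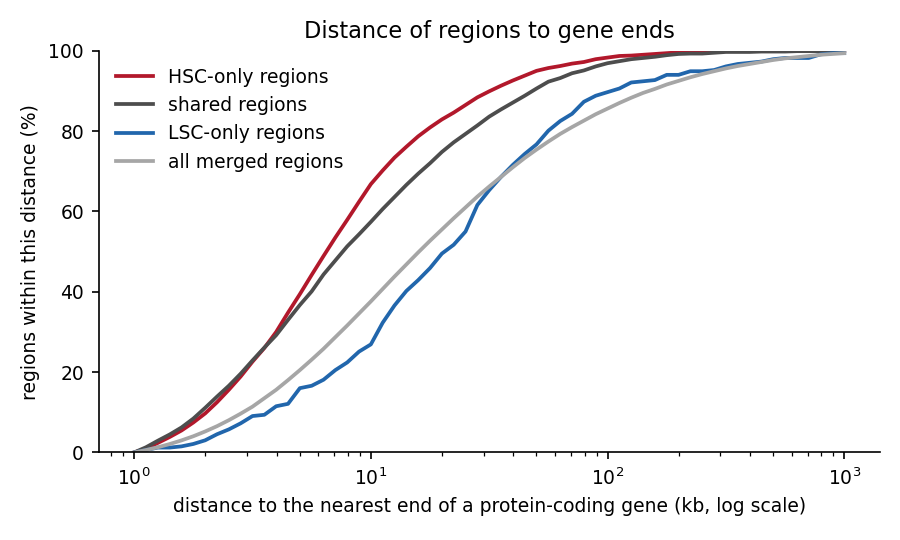
Cumulative percent of regions (vertical axis) within a distance of the nearest protein-coding gene end (horizontal axis, kb, log scale), for HSC-only (red), shared (dark grey), LSC-only (blue) and all merged regions away from gene ends (light grey). The HSC-only curve passes 66.8% at 10 kb, where the shared curve is at 57.4%, the LSC-only curve at 26.9% and the curve of all regions at 37.6%.

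With genes of known strand divided into 4 equal stretches from start to end, these held 28.1%, 29.2%, 24.8% and 17.9% of HSC-only regions. Shared regions leaned further to the start, with 31.9%, 31.6%, 23.7% and 12.8%. The genes that held an HSC-only region mostly had LSC peaks at their ends: 1707 of 2043 (83.6%) had a peak at a gene end in both LSC libraries, against 73.1% of genes holding a shared region and 50.6% of all 21887 protein-coding genes. Among genes of 20 to 50 kb the shares were 85.3%, 75.2% and 60.9% in the same order.

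An LSC peak was usually near. The nearest one lay a median 1703 bp away, within 1 kb for 1615 regions (34.5%) and within 10 kb for 4297 (91.7%). Other regions with an HSC peak and no LSC peak, 224378 in number, had an LSC peak within 10 kb in 43.7% of cases. In regions more like the HSC-only ones, 15445 with peaks in both HSC libraries and no LSC peak but under 500 bp in at least 1, the share was 80.6%. Measured to the nearest other merged region with an LSC peak, 92.0% of HSC-only and 88.0% of shared regions had one within 10 kb. Taking the nearest merged region with an LSC peak as the neighbour, 4314 HSC-only regions had one within 10 kb, and 3052 of these neighbours also carried peaks in both HSC libraries. The neighbour had the higher fold in 76.8% of these pairs in HSC 1 and in 76.7% in HSC 2. Over all HSC-only regions, 34.6% of the neighbours lay at a gene end, where the rule admits no HSC-only region. At the other end, 57 regions (1.22%) had no LSC peak within 50 kb. The strongest of these by HSC rank lies in Rtp4, an interferon-induced chaperone of receptors, at chr16:23609595-23612052. Its folds were 27.8 in HSC 1 and 36.5 in HSC 2, and the nearest LSC peak was 230411 bp away. Another far from LSC peaks lay in Cd55, the gene of a complement inhibitor on the cell surface, with folds of 11.1 and 17.8. The Cd55 region contains an annotated transcript start of that gene.

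Among the 20 regions whose weaker HSC peak ranked highest, the first in order is chr2:181917419-181918011, inside the lncRNA Gm40034 and 28444 bp from the gene Gm40035, with folds of 28.2 in HSC 1 and 48.6 in HSC 2 and an LSC peak 587 bp away. The Rtp4 region is the second. The third lies 15402 bp from Ache, the acetylcholinesterase gene, with folds of 26.0 and 23.5. The fourth lies 3175 bp from Degs1, whose enzyme makes ceramide from dihydroceramide, with a fold of 25.1 in each HSC library.

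Next came a region in Plekha2, which encodes a phosphoinositide-binding adaptor, with folds of 24.3 and 19.6. A region 5081 bp from Ywhag, the gene of a 14-3-3 protein, had folds of 23.8 and 23.0. In Mxi1, which encodes an antagonist of Myc, the folds were 22.6 and 17.6. A region 2928 bp from Cd14, the lipopolysaccharide co-receptor of monocytes, had folds of 19.4 and 19.8. In Jdp2, a repressor of AP-1 target genes, they were 18.9 and 21.8, and in Sipa1, a GTPase-activating protein for Rap, they were 22.1 and 15.8. Slc17a9, Sec22c and Tlcd3a also held one of the 20, and Olfr161, Nicn1, B4galt5, Odf2, Tbc1d13, Arid5b and Tmem71 were nearest to one. The Olfr161 region lay 240516 bp from the gene.

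The longest regions measured 4943 to 5597 bp, against a median of 1234 bp. The longest lay 2492 bp from Gm4832, with a fold of 13.3 in each HSC library. In Pecam1, the adhesion molecule of endothelial and blood cells, a region of 5375 bp had folds of 10.1 in HSC 1 and 28.2 in HSC 2. A region of 5392 bp lay in Asap1, a GTPase-activating protein for Arf, with folds of 9.58 and 8.15. One of 4993 bp lay where Rab37 and Cd300lf overlap, with folds of 16.0 and 20.8, and the fifth is the Degs1 region above.

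Some genes gathered many regions. Of the 21887 protein-coding genes, 2043 held at least 1 HSC-only region in the gene body (9.33%), and 507 held 2 or more. Cmip, the gene of an adaptor first described in lymphocytes, held 10 in 204 kb, with folds of 5.16 to 19.4 in HSC 1 and 4.60 to 17.0 in HSC 2. LSC 1 and LSC 2 had 14 and 15 peaks in the same gene body, and HSC 1 and HSC 2 had 58 and 73. Vmp1, needed for autophagosome formation, held 9, Ripor2 held 8, and Emilin2, Ptpre and Rab37 held 7 each. Emilin2, which encodes an extracellular matrix glycoprotein, was the densest of these at 118 regions per Mb. Counting also the nearest gene for regions outside genes, Slfn4, a Schlafen gene of myeloid cells, had 8 regions and 0 shared ones. Fkbp5, a co-chaperone induced by glucocorticoids, and Jdp2 had 7 each, with 0 shared. These 3 were picked after their counts were seen.

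Some HSC-only regions lay close together. Spacing was counted for no other class, so whether they cluster more than other regions was not tested. Of all HSC-only regions, 1720 (36.7%) had another within 10 kb, forming 714 clusters, 61 of them with at least 4 regions. The largest held 8. One spans 45.9 kb of Ripor2 and another 38.8 kb around Rasgrp4, Spred3 and Ryr1. Rasgrp4 encodes an activator of Ras in myeloid and mast cells. A cluster of 7 spans 34.6 kb at Mid1 on the X chromosome, the gene that crosses the pseudoautosomal boundary in laboratory mice.

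Chromosome 11 held 594 of the regions (12.7%), against 8.19% of shared regions and 7.66% of all merged regions away from gene ends. It held 1250 of the 11403 regions with a long peak in both HSC libraries, whatever their LSC peaks. Of these 1250, 47.5% were HSC-only, against 41.1% over all chromosomes. Per 100 protein-coding genes it had 36.9 HSC-only regions, where chromosome 19, the next, had 28.7. The X chromosome held 38 (0.811%), against 1.68% of shared regions. Sex of the donors is not in the labels, so X and Y counts were not compared further.

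**Figure D3:**
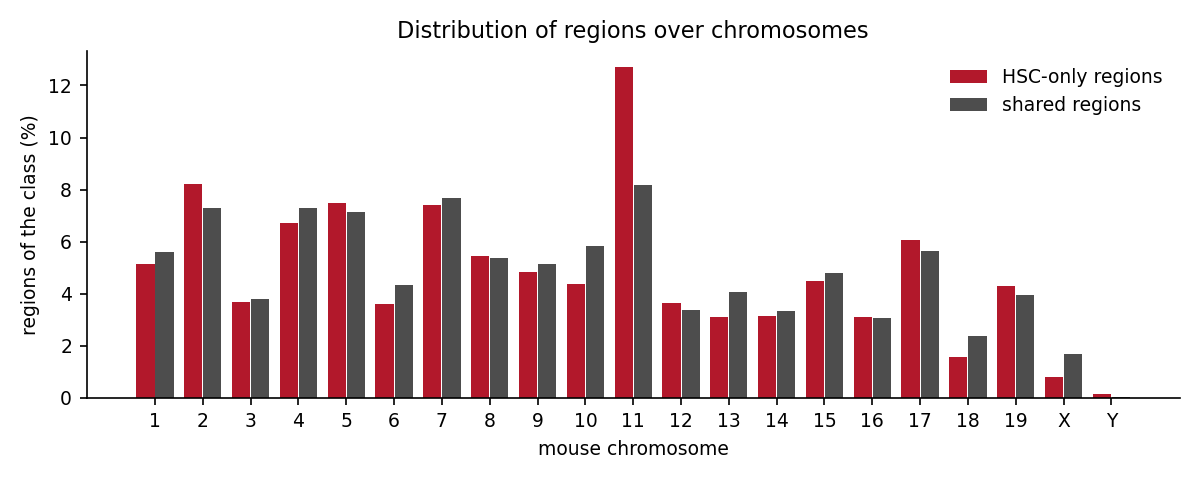
Percent of the 4687 HSC-only regions (red, left bar) and of the 4116 shared regions (grey, right bar) on each mouse chromosome. Chromosome 11 holds 12.7% of HSC-only and 8.19% of shared regions.

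To place the regions among known programmes, 421 genes in 16 lists were read against them. A gene was counted if a region lay in its body or had it as the nearest gene. No limit was set on the distance to the nearest gene, which reached 320350 bp for a list gene. Over all protein-coding genes 3166 (14.5%) were counted that way, and 13.5% were counted for shared regions. Genes are not replicates, so these shares describe the lists and nothing was tested.

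With nearest genes counted, mature neutrophil genes had the highest share of the 16 lists: 16 of 31 (51.6%) had an HSC-only region, with 31 regions in all, while 6 (19.4%) had a shared region, with 8 in all. S100a8 and S100a9, which encode the subunits of calprotectin, together had 7. Of these, 4 were nearest to S100a8, with folds of 8.84 to 16.0 in HSC 1 and 7.67 to 19.6 in HSC 2. The other 3 were nearest to S100a9, with folds of 9.09 to 14.7 in HSC 1 and 7.56 to 8.62 in HSC 2. Both genes carried LSC peaks over their bodies. In a window reaching 20 kb beyond the pair, LSC 1 and LSC 2 had 6 and 4 peaks covering 5.56 and 10.3 kb, and HSC 1 and HSC 2 had 35 and 26 peaks covering 33.4 and 34.0 kb. The HSC-only regions there lie on both sides of the genes and between them.

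**Figure D4:**
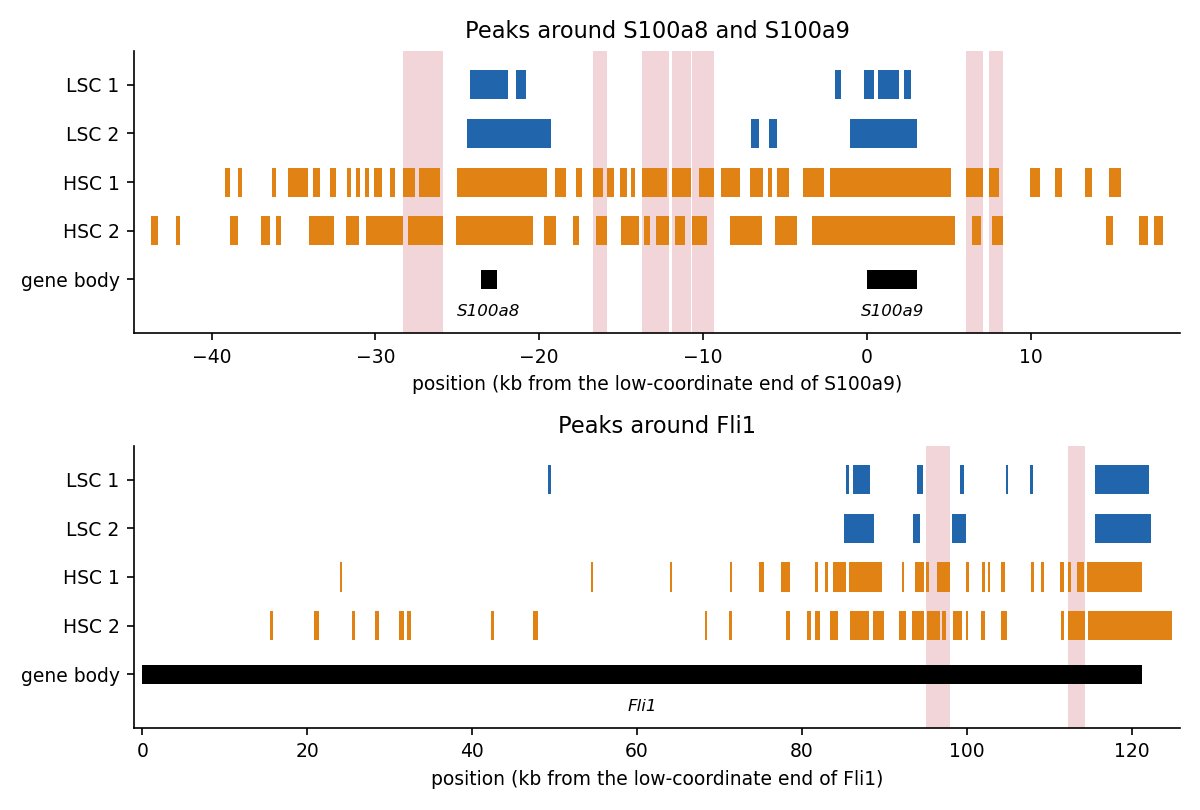
Peaks (bars) of LSC 1, LSC 2, HSC 1 and HSC 2 around S100a8 and S100a9 (top) and Fli1 (bottom), by position in kb from the low-coordinate end of S100a9 or Fli1, with gene bodies in black and HSC-only regions shaded. The 7 shaded regions at S100a8 and S100a9 lie outside the gene bodies, and the 2 at Fli1 lie inside it.

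Receptors of neutrophils were counted too. Cxcr2, the receptor for neutrophil-attracting chemokines, had 3 regions, with folds of 7.12 to 10.1 in HSC 1 and 12.5 to 18.4 in HSC 2. Il1r2, the decoy receptor for interleukin-1, had 3, Csf3r, the receptor for G-CSF, had 2, and Trem1, which amplifies inflammatory signals, had 2. Cd177, a surface glycoprotein of neutrophils, held a region of 3441 bp with folds of 13.8 and 16.6. Fpr1, a receptor for bacterial formyl peptides, was nearest to a region of 4300 bp with folds of 11.8 and 23.4. The granule genes Camp and Ltf had 1 each and Mmp9 had 2, the Camp region with folds of 15.0 and 17.9. Peaks at these genes were not confined to HSC libraries: of the 31 list genes, 24 and 27 had a peak in or within 1 kb of the body in LSC 1 and LSC 2, and 30 and 31 in HSC 1 and HSC 2. Peaks there numbered 62 and 49 in LSC 1 and LSC 2, which is 0.152% and 0.145% of each list, and 170 and 172 in HSC 1 and HSC 2, which is 0.148% and 0.0734%. Cxcr1, Il1b and Retnlg had none in either LSC library. The sorted HSC gate does not select neutrophils, and the part of other cells in these regions was not tested. With lists of equal length 1 gene of the list held a region in its body, against 6 with the full lists. Counted by regions in the gene body alone, those 6 are 19.4% of the list, where all protein-coding genes stood at 9.33%. That share was below ferroptosis and iron genes (27.5%) and interferon genes (20.0%). Per Mb of gene body the neutrophil list held 25.3 regions, the highest of the 16 lists, against 2.65 for all protein-coding genes.

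Granulocyte and monocyte genes had HSC-only and shared regions in like numbers with nearest genes counted, 24 and 22. In the gene bodies alone there were 8 HSC-only and 3 shared regions. In the granulocyte and monocyte list 11 of 33 (33.3%) had an HSC-only region, and 13 (39.4%) a shared one. Cebpb, a transcription factor of emergency granulocyte production, was nearest to 7 regions, at 6422 to 101611 bp from the gene. Their folds were 9.09 to 12.8 in HSC 1 and 6.49 to 14.6 in HSC 2. The nearest LSC peak lay 47 to 11992 bp from these regions. Itgam, the integrin chain also called CD11b, had 3, and Tlr2, a receptor for bacterial lipoproteins, had 3. Cx3cr1, the fractalkine receptor of monocytes, held 2.

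In the HSC programme list 7 of 38 (18.4%) had an HSC-only region and 9 (23.7%) a shared one. Its gene bodies held 2.9 HSC-only regions per Mb, against 2.65 for all protein-coding genes. Runx1, a master regulator of blood formation, held 5 in its body and was nearest to 2 more, 259887 and 320350 bp away. Folds of all these regions were 4.67 to 11.3 in HSC 1 and 2.95 to 15.3 in HSC 2. Fli1, an ETS factor of stem cells and megakaryocytes, held 2, with folds of 15.5 and 18.4 in HSC 1 and 11.7 and 20.2 in HSC 2. Over the Fli1 body and 1 kb on each side, LSC 1 and LSC 2 had 8 and 4 peaks with top folds of 175 and 166, and HSC 1 and HSC 2 had 24 and 27 with top folds of 46.9 and 78.6. Etv6, another ETS factor, held 3. Gfi1, a repressor that restrains stem cell division and promotes neutrophil fate, had 3, with folds of 7.37 to 7.86 in HSC 1 and 5.55 to 24.9 in HSC 2, and stands also in the MLL fusion target list. Erg was nearest to 1, and Cxcr4, the receptor that keeps stem cells in the marrow, to 2.

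MLL fusion target genes, the set kept active by MLL-AF9, had an HSC-only region in 8 of 30 (26.7%) and a shared one in 13 (43.3%). These genes had a median length of 110 kb, against 17.2 kb for all protein-coding genes. Their bodies held 2.29 HSC-only regions per Mb, against 2.65 for all. Cdk6, a cell cycle kinase that MLL-rearranged leukemia depends on, had 4, with folds of 6.63 to 11.3 in HSC 1 and 5.90 to 9.56 in HSC 2. Jmjd1c, a histone demethylase, held 2, Runx2, a RUNX factor, held 2, and Myb was nearest to 2, the stronger with folds of 11.5 and 18.9. Dot1l, the histone methyltransferase recruited by MLL fusions, held 1 with folds of 8.84 and 7.32.

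Ferroptosis and iron genes had an HSC-only region in 18 of 40 (45.0%) and a shared one in 13 (32.5%). That share was second among the lists with nearest genes counted. With 11 of 40 (27.5%), the list was first by share of genes with a region in the body. When the peak lists had equal length, 3 genes of this gene list held one. Its genes had a median length of 29.4 kb, against 8.22 kb for mature neutrophil genes and 17.2 kb for all. Per Mb of gene body it held 7.67 regions, against 25.3 for mature neutrophil and 16.3 for interferon genes. Granulocyte and monocyte genes held 14.9 per Mb, and all protein-coding genes 2.65. Slc7a11, the cystine importer that feeds glutathione synthesis, held a region with folds of 14.7 in HSC 1 and 14.8 in HSC 2. Nfe2l2, whose product NRF2 drives antioxidant genes, had 4, with folds of 5.65 to 11.5 in HSC 1 and 7.44 to 13.5 in HSC 2. The nearest LSC peak lay 9, 323, 1569 and 2021 bp from the Nfe2l2 regions. Gclm, a subunit of the glutathione synthesis enzyme, held 1 with folds of 11.3 and 12.9. Por, an oxidoreductase that promotes lipid peroxidation, held 1 with folds of 13.5 and 15.1. Tfrc, the transferrin receptor, and Fth1, the ferritin heavy chain, were each nearest to 1. Slc11a2, an iron transporter, had 2. Gpx4, the enzyme that removes lipid peroxides, had none. The rule leaves out regions within 1 kb of a gene end, so short genes have little room for one in the body.

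Interferon genes had an HSC-only region in 6 of 20 (30.0%) and a shared one in 3 (15.0%). Stat2, a signal transducer of type I interferon, held 3, with folds of 6.14 to 10.6 in HSC 1 and 9.68 to 19.2 in HSC 2, and Oas2, an RNA-sensing antiviral enzyme, held 1 with folds of 7.37 and 21.4. Among other lineages the megakaryocyte list had 6 of 23 (26.1%), the erythroid list 4 of 30 (13.3%), the T and NK cell list 4 of 30 (13.3%) and the endothelial list 3 of 19 (15.8%). Of these, Thbs1 and Gata3 were counted by regions 182910 and 80994 bp away. B cell genes had 0 of 21, mast cell and eosinophil genes 1 of 17 (5.88%) and stromal genes 2 of 20 (10.0%). Neuronal genes had 1 of 24 (4.17%), by a region 263052 bp from Stmn2. Ribosomal protein genes, of median length 3.31 kb, had 6 of 58 (10.3%), with 0 in the body. Some genes stand in more than 1 list, such as Fli1, Csf3r and Csf2rb.

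**Figure D5:**
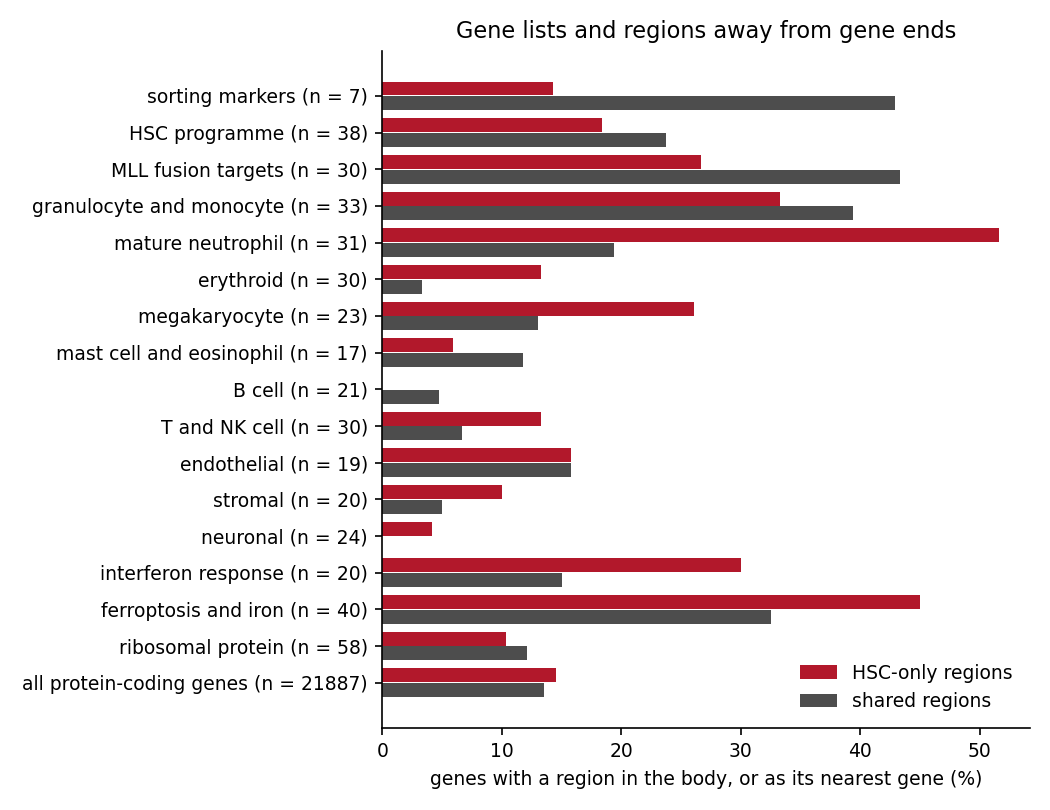
Percent of genes of each list (horizontal axis) that had a region in the body or were the nearest gene of one, for HSC-only (red, upper bar) and shared regions (grey, lower bar). Mature neutrophil genes reach 51.6% for HSC-only and 19.4% for shared regions, where all protein-coding genes reach 14.5% and 13.5%.

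The sorting markers were mostly outside these regions, with 1 region in Fcgr2b alone. Its folds were 6.39 in HSC 1 and 7.32 in HSC 2. Ly6a, which encodes Sca-1, had 0 peaks in each LSC library and 4 in each HSC library over its body. With 5 kb added on each side of Ly6a, LSC 1 and LSC 2 had 1 peak each, with folds of 18.2 and 23.8. HSC 1 and HSC 2 had 6 and 8 there, with top folds of 26.3 and 43.8. Slamf1, which encodes CD150, had 0 in each LSC library, 1 in HSC 1 and 7 in HSC 2. Kit had 1 peak in each LSC library with folds of 88.7 and 91.2, and 4 and 11 in HSC 1 and HSC 2 with top folds of 11.8 and 22.7. Cd48, on which the HSC gate is negative, had 1 and 2 peaks in LSC 1 and LSC 2, with top folds of 127 and 107. HSC 1 and HSC 2 had 4 and 6 in Cd48, with top folds of 23.1 and 28.0. Cd34 had 4 and 1 peaks in LSC 1 and LSC 2 (top folds 127 and 49.1) and 1 and 5 in HSC 1 and HSC 2 (5.16 and 9.21). Fcgr3 had 3 in each LSC library (top folds 125 and 106) and 8 and 5 in HSC 1 and HSC 2 (88.4 and 95.4).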

How the data were processed

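Sub1 CUT&Tag peak lists were deposited for 2 LSC and 2 HSC libraries. Per the submitters' processing notes, FastQC 0.11.5, Bowtie2 2.2.9, MACS2, ChIPseeker and the mm10 build were used. Caller settings, duplicate handling and read totals are not given in the sources used here, so depth is unknown. The authors deposited for each peak a fold (a ratio of pileup to background), -log10 p, -log10 q and a score. The lowest deposited -log10 q was 5.36 and 5.41 in LSC 1 and LSC 2 and 5.21 and 5.26 in HSC 1 and HSC 2. These values are the authors' and were used to describe, rank and filter peaks within a list.

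Peaks of the 4 lists were merged at 1 bp of overlap on the main chromosomes, and distances were taken to both ends of 21887 protein-coding genes of RefSeq GRCm38.p6 (mm10). Merging and the rule were checked against a slower version on simulated peaks. The members and gene lists were chosen with earlier results of these data known. No test was run, since the readout chose the regions, and 2 libraries against 2 cannot give an exact permutation p below 0.33. Of the listed genes, 4 (Tpsab1, Ighm, Mx1 and Mx2) were not among the protein-coding genes of the table. Regions named are the 20 with the highest percentile of the weaker HSC peak, the 5 longest, those at list genes and the 5 genes with most regions (6 with a tie), other names being chosen after values were seen. A genome was not used here, so base content and motifs around summits were not computed, and starts and microRNAs came from RefSeq tables. Alternatives were equal-sized lists, a stricter -log10 q, other lengths, overlaps, distances and gene sets, and leaving out each library. Tables were handled in pandas 2.3.3 under Python 3.11.15 with NumPy 2.4.6, intervals came from SciPy 1.17.1, and plots from matplotlib 3.10.9.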

Additional observations from a re-analysis of the deposited data

Results flagged for a closer look

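Sequences outside the main chromosomes (unplaced and unlocalised scaffolds) were left out of the report. There, 1465 merged regions were found, and 32 of them had a peak of at least 500 bp in both HSC libraries and none in LSC, against 7 with the mirror-image pattern. No gene distance was applied to them, and no test was made.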

How the results depend on the processing

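The number of HSC-only regions, 4687 with the full lists, depended on most settings. It was 905 with equal-sized lists, 2196 where both HSC peaks had to overlap by 50%, 3073 with no LSC peak within 1 kb, 20132 with no minimum length and 478 with a minimum of 1000 bp. It was 877 when the HSC peaks had to be among the top 34185 of both lists, an alternative chosen after seeing the data. Leaving out each library in turn gave 5818 to 67831, the highest without HSC 1, and 13946 without HSC 2. The share inside genes was 54.6% with equal-sized lists and 55.4% to 60.4% with a library left out. The median distance to a gene end was 5981 bp with equal-sized lists, 7723 bp with no minimum length, 5903 bp at 1000 bp and 5805 to 14051 bp with a library left out. The median fold, averaged over the HSC libraries, was 9.62, against 13.4, 7.75 and 11.7 under those 3 settings and 6.97 to 9.97 with a library left out. List genes with a region in the body numbered 42, against 14 with equal-sized lists and 87 when nearest genes were added. A -log10 q of at least 10 and over 3 kb from gene ends kept the number within 1.5 times. Of the 20 leading regions, 13 were kept with the 50% overlap, 12 with no LSC peak within 1 kb, 8 at 1000 bp and 15 over 3 kb from gene ends. Sequence around the HSC 2 summits was not run. No paired analysis was possible because the results come from no test. The peak lists give no depth, so absence of an LSC peak cannot be told apart from a peak below the caller's limit, and with 2 libraries per group the spread between mice is unknown.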
